A study of Mus musculus with 6 samples.

Results

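Adrenergic receptors are the proteins through which noradrenaline from sympathetic nerves and circulating adrenaline act on fat. Their RNA was followed here in white adipose tissue of mice for 8 genes, Adrb1, Adrb3, Adra1a, Adra1b, Adra1d, Adra2a, Adra2b and Adra2c, taken by symbol from the 21959 genes of the deposited table. Each symbol matched 1 gene, and all 8 passed the filter on low counts, as did 13566 genes in all. The tissue was labelled white adipose tissue, and the series text calls it gWAT. There were 3 libraries of wild-type mice (WT, replicates 10, 11 and 12) and 3 libraries of the genotype labelled ++Oxtr (replicates 7, 8 and 9). The series text ties ++Oxtr to OXTR, the oxytocin receptor. The sources used here give neither the construct behind ++Oxtr nor the strain, sex and age of the mice. Nothing in the labels says that replicates are separate animals, so p-values measure the spread between these libraries, which may be technical.

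The libraries held 14314517 to 19186696 counts. The adipocyte markers fitted the label in every library, with Adipoq, the adiponectin gene, at 2282 to 2822 CPM (counts scaled to library size with TMM factors). Some libraries stood apart in other cell types. Of 12 genes of multiciliated epithelium, which is no part of fat, the WT libraries (10, 11 and 12 in this order throughout) summed to 3.3, 3.19 and 21.5 CPM. The ++Oxtr libraries (7, 8 and 9 in this order throughout) summed to 5.15, 114 and 24.5 CPM. Of 6 genes of T and natural killer cells it was 36.4 CPM in ++Oxtr replicate 9 and 7.97 to 15.7 CPM in the other libraries. In whole tissue, fewer cells of a type and less RNA per cell cannot be told apart.

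The family divides by the G protein that each receptor uses. The beta receptors couple to Gs, which switches on adenylyl cyclase, so that cAMP activates protein kinase A and fat cells break down stored triglyceride. The alpha2 receptors couple to Gi and restrain adenylyl cyclase, and the alpha1 receptors couple to Gq, phospholipase C and calcium release. In rodents the beta3 receptor, the product of Adrb3, is known as the main beta receptor of adipocytes.

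The 8 genes are separate loci whose coding sequences resemble each other. To show how much members of a subtype share, the coding stretch around the aspartate, arginine and tyrosine codons that close the third transmembrane helix is given for each, with those codons in capitals. They were read from the GENCODE M21 transcripts on GRCm38 as 69 bases of the coding strand, 5′ to 3′, with 30 bases on each side.
Adrb1, chr19:56722804-56722872, plus strand: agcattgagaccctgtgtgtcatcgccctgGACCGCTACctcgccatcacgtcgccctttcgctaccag
Adrb3, chr8:27227991-27228059, minus strand: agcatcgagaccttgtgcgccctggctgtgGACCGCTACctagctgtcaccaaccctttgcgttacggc
Adra1a, chr14:66637914-66637982, plus strand: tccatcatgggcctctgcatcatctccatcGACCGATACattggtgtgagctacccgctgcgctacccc
Adra1b, chr11:43835627-43835695, minus strand: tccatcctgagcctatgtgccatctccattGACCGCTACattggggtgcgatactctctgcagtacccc
Adra1d, chr2:131561572-131561640, minus strand: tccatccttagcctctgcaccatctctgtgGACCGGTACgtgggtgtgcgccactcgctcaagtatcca
Adra2a, chr19:54046617-54046685, plus strand: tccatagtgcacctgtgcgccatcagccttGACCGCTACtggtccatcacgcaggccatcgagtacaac
Adra2b, chr2:127363874-127363942, plus strand: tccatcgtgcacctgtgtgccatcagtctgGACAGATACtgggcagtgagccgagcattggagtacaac
Adra2c, chr5:35280297-35280365, plus strand: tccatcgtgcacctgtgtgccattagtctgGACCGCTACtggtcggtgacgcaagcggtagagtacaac
The triplet, GAC or GAT followed by an arginine codon and TAC or TAT, occurred once in frame in each of the 8 longest coding sequences, and in 8.15% of 21562 genes with a coding sequence. In this window the 3 alpha2 genes shared 75.4% to 84.1% of their bases, the 3 alpha1 genes 72.5% to 78.3%, and Adrb1 and Adrb3 69.6%. Genes of different subtypes shared 46.4% to 63.8%. Over whole coding sequences, the longest run of identical bases in 2 genes was 30, between Adrb1 and Adrb3, and it was 10 to 26 in the other 27 pairs. No member shared a run of 50 bases with another member.

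Reads can still be shared with other genes. Adrb3 (chr8:27225776-27250616, minus strand, 4 exons in its longest coding transcript) lies across from the antisense gene Gm45470. Adrb3 shared 646 stretches of 50 bases with 1 other gene, none of them in the coding sequence of Adrb3. Adra1d (chr2:131545850-131562283, minus strand, 2 exons) overlaps the antisense gene Gm14285, with 99 such stretches inside its coding sequence. Neither antisense gene is among the counted genes. Without a known strand setting, the reads of a gene and its antisense partner cannot be told apart. Adrb1 (chr19:56722199-56733113, plus strand, 1 exon) shared stretches with 46 other genes, Adra1a (chr14:66635251-66771168, plus strand, 3 exons) with 40 and Adra1b (chr11:43774606-43901210, minus strand, 5 exons) with 4, all outside their coding sequences. Adra2a (chr19:54044151-54048982), Adra2b (chr2:127363208-127367221) and Adra2c (chr5:35278319-35281763), each on the plus strand and with a coding transcript of 1 exon, shared none.

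Adrb3 was far above the other members in every library. Its mean was 177 ± 41.8 FPKM (reads scaled to gene length and library size, SD, n = 3) in WT and 184 ± 59.6 FPKM in ++Oxtr. Of the 1943 genes that the authors' table annotates to G protein-coupled receptor activity it had the highest mean FPKM in both groups, and it ranked 160 in WT and 148 in ++Oxtr among all 21959 genes. Adra1d came second among the receptor genes followed here, at 5.22 ± 1.87 FPKM in WT and 6.99 ± 1.34 in ++Oxtr (SD, n = 3). Its libraries did not overlap with those of Adrb3 above it or Adrb1 below it.

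**Figure D1:**
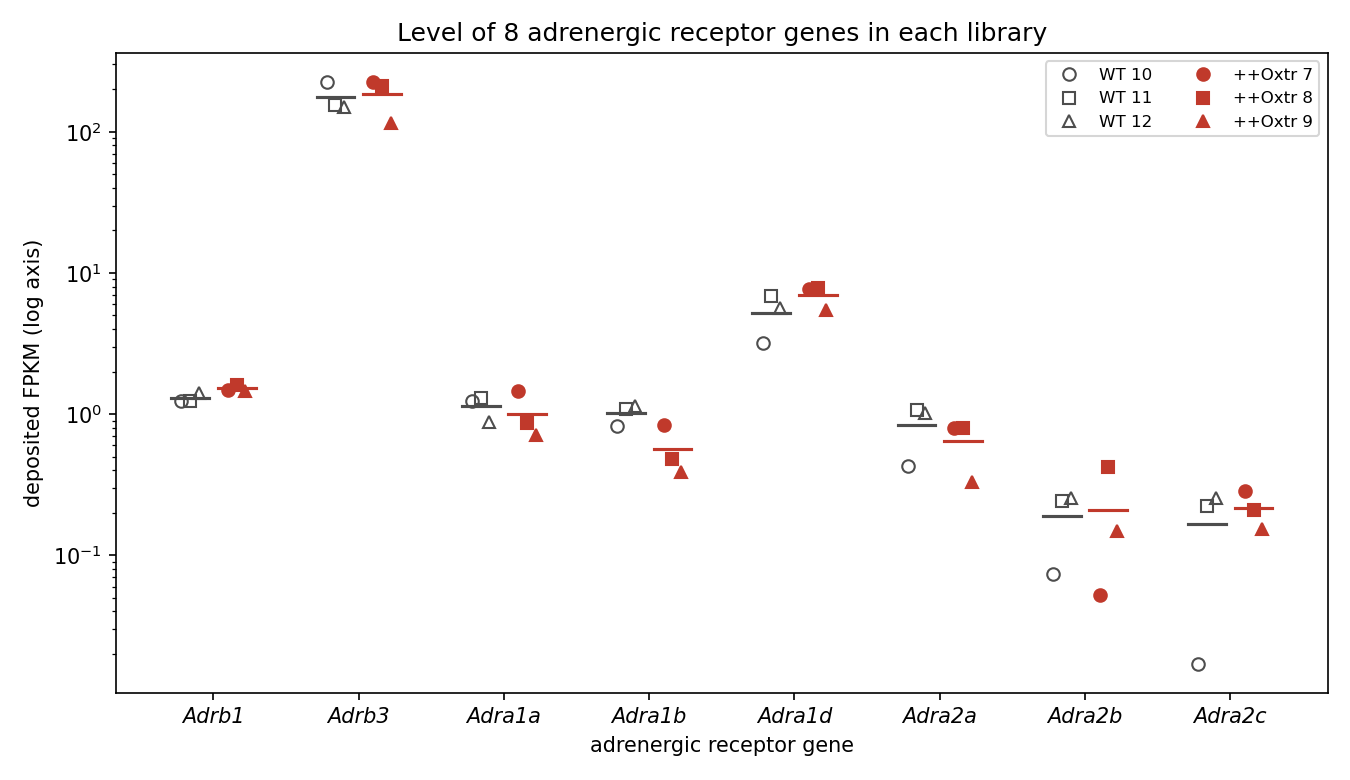
Deposited FPKM of each receptor gene on a log axis, with 1 symbol per library (open for WT, filled for ++Oxtr) and a line at the group mean. Adrb3 lies between 115 and 225 FPKM, Adra1d between 3.17 and 7.79, and the other genes at or under 1.62.

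The remaining 6 genes were at or under 1.62 FPKM in every library. In WT the order was Adrb1 (1.29 ± 0.0969 FPKM), Adra1a (1.14 ± 0.236), Adra1b (1.02 ± 0.175), Adra2a (0.837 ± 0.356), Adra2b (0.19 ± 0.101) and Adra2c (0.166 ± 0.13), each with SD and n = 3. The libraries of neighbours in this order overlapped, except that Adra2a lay above Adra2b. In ++Oxtr Adrb1 (1.52 ± 0.0871 FPKM) lay above Adra1a (1.01 ± 0.389), while Adra1a, Adra2a (0.641 ± 0.27) and Adra1b (0.569 ± 0.233) overlapped as neighbours, and Adra1b lay above Adra2c (0.216 ± 0.0672), which overlapped Adra2b (0.208 ± 0.192). The order of Adra1a and Adrb1 rests on the length by which reads are divided. The deposited length of all 8 genes equals the length of all their exons in GENCODE M21 joined, which is 8728 bases for Adra1a, against 4282 for its longest coding transcript. By the longest coding transcript, a choice made after seeing the data, Adra1a was at 2.32 ± 0.48 FPKM in WT and Adrb1 at 1.48 ± 0.111 (SD, n = 3), and their WT libraries no longer overlapped. In ++Oxtr, where they were apart by the deposited length, they overlapped by this one (Adra1a 1.44 to 2.95 FPKM, Adrb1 1.66 to 1.85).

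None of the 8 genes passed edgeR's quasi-likelihood test between ++Oxtr and WT at an adjusted p of 0.05, where 0% of all genes tested did. The adjusted p-values ran from 0.589 to 0.973. At an unadjusted edgeR p under 0.05 the count was 0 of 8, against 8.91% of all genes tested (4.44% higher and 4.47% lower in ++Oxtr). DESeq2 called 0 of 8 after adjustment, against 1.4%, and 0 of 8 at its unadjusted p, against 9.55%. The groups did not overlap in CPM for 1 of 8, against 15.1%, and this gene was higher in ++Oxtr (7.45% of all genes were higher without overlap and 7.61% lower). Of the 8, 5 were on the higher side in ++Oxtr, against 50.8% of all genes, and their median log2 fold change was 0.13, against 0.00 over all genes. The intervals were wide for the low genes, so these libraries do not show that the receptors were alike in both groups.

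**Figure D2:**
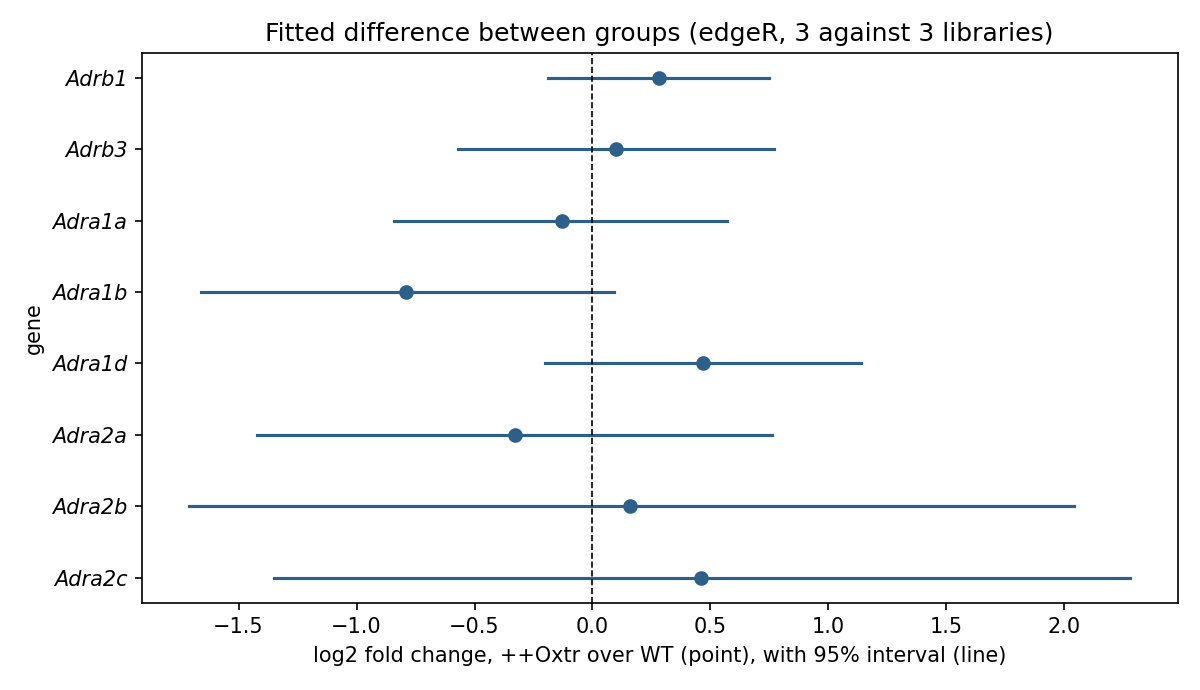
Fitted log2 fold change of each receptor gene, ++Oxtr over WT (points), with its 95% interval (lines) from edgeR on 3 against 3 libraries. Every interval crosses 0, and the widest are those of Adra2b (-1.71 to 2.04) and Adra2c (-1.35 to 2.28).

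Adrb3, the receptor through which beta3 agonists drive lipolysis, differed more within each group than between them. WT libraries held 759, 518 and 491 CPM, and ++Oxtr libraries 773, 722 and 397 CPM. The lowest and the highest library were both ++Oxtr, and the WT libraries fell between them. The fitted fold change was 1.07 (log2 0.10, SE 0.28), with a 95% interval from 0.673 to 1.7, an edgeR adjusted p of 0.948 and an exact 2-sided permutation p of 0.9. With 5882 to 14557 reads per library, counting error was small, and the spread within a group was 593 times that of counting in WT and 1019 times in ++Oxtr. The log2 value was 0.34 without ++Oxtr replicate 9 and 0.32 without WT replicate 10, and -0.08 without ++Oxtr replicate 7.

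The adipocyte markers of ++Oxtr replicate 9, the library with the lowest Adrb3, did not share a direction. The summed level of 9 adipocyte genes was 35535 CPM there, the highest of the 6, against 26144 to 32445 CPM in the others. That rank came from Cfd, the adipsin gene, at 14485 CPM against 7187 to 9746. Without Cfd, a choice made after seeing the data, the sum was 21049 CPM, against 18779 to 22699 in the others. Plin1, which coats the lipid droplet, and Lep, the leptin gene, were lowest in that library, at 1729 against 1954 to 2462 CPM and at 61.4 against 217 to 666 CPM. Per 1000 CPM of the 9 markers Adrb3 was at 23.4, 17.8 and 18.8 CPM over the WT libraries and at 25.9, 27.4 and 11.2 CPM over those of ++Oxtr. Without Cfd the value was 18.9 CPM in ++Oxtr replicate 9 and 24.5 to 38.4 CPM in the others. The part of T and natural killer cell RNA, which was high in the same library, was not tested.

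Adrb1, the beta receptor best known from the heart, was the single member whose groups did not overlap. WT libraries held 4.19, 4.16 and 4.59 CPM, and ++Oxtr libraries 5.15, 5.53 and 4.99 CPM. The difference was small. The fitted fold change was 1.21 (log2 0.28, SE 0.20, 95% interval 0.874 to 1.68), with an edgeR adjusted p of 0.711 and an exact permutation p of 0.1, the smallest that 3 against 3 libraries allow. These values rest on 60 to 97 reads per library, and the libraries of a group differed by less than counting error alone would give, 0.203 and 0.223 times it.

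Of the alpha1 receptors, which act through Gq, Adra1d was on the higher side in ++Oxtr and Adra1b on the lower. Adra1d had 6.01, 12.9 and 10.4 CPM in WT and 15, 15 and 10.5 CPM in ++Oxtr. WT replicate 10 was lowest, while ++Oxtr replicate 9 lay among the WT libraries. The fold change was 1.39 (log2 0.47, SE 0.29, 95% interval 0.871 to 2.21, edgeR adjusted p 0.667, exact permutation p 0.2). On the log2 scale it was 0.22 without WT replicate 10 and 0.73 without WT replicate 11.

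Adra1b had 2.77, 3.68 and 3.74 CPM in WT and 2.87, 1.65 and 1.35 CPM in ++Oxtr. The groups overlapped through ++Oxtr replicate 7, which lay just above WT replicate 10. The fold change was 0.58 (log2 -0.79, SE 0.37, 95% interval 0.317 to 1.06), and its unadjusted edgeR p of 0.0713 was the smallest of the 8 genes, with an adjusted p of 0.589 and an exact permutation p of 0.2. Without ++Oxtr replicate 7 the log2 value was -1.18, at an edgeR adjusted p of 0.394. Reads numbered 47 to 57 in WT and 20 to 54 in ++Oxtr.

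Adra1a had 10.8, 11.4 and 7.34 CPM in WT and 12.9, 7.64 and 6.28 CPM in ++Oxtr. The groups overlapped over most of their range. Its fold change was 0.911 (log2 -0.13, SE 0.30, 95% interval 0.56 to 1.48, edgeR adjusted p 0.933, exact permutation p 0.8). By reads alone it was close to Adra1d, with 93 to 242 reads per library against 102 to 282, and its lower FPKM came with the greater gene length.

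Among the alpha2 receptors, the Gi-coupled brakes on lipolysis, Adra2a made up most of the level. It had 2.06, 5.13 and 4.72 CPM in WT and 3.93, 3.89 and 1.62 CPM in ++Oxtr. A single library was low in each group, WT replicate 10 and ++Oxtr replicate 9. The fold change was 0.796 (log2 -0.33, SE 0.47, 95% interval 0.374 to 1.69, edgeR adjusted p 0.874, exact permutation p 0.5). The log2 value was -0.64 without WT replicate 10 and -0.02 without ++Oxtr replicate 9.

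Adra2b and Adra2c were close to the limit of detection. For Adra2b the WT libraries held 5, 14 and 15 reads, those of ++Oxtr 4, 26 and 9. Its highest library, ++Oxtr replicate 8, was also the one with the most multiciliated epithelium RNA. Its log2 fold change was 0.16 (SE 0.80, edgeR adjusted p 0.973, exact permutation p 1), and turned to -0.88 without that library and to -1.17 with the multiciliated marker level as a covariate. The part of that epithelium in the Adra2b values was not tested. For Adra2c the WT libraries held 1, 11 and 13 reads, those of ++Oxtr 19, 11 and 8. The 1 read of WT replicate 10 has a 95% Poisson interval of 0.0253 to 5.57 reads, which covers counting error only. The log2 fold change was 0.46 (SE 0.78, edgeR adjusted p 0.901, exact permutation p 0.7), and -0.08 without WT replicate 10.

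Set side by side per length, the beta genes held nearly all of the summed level. Adrb3 was 97%, 92.8% and 93.4% of the summed FPKM of the 8 genes in the WT libraries, against 94.7%, 94.6% and 93.1% in those of ++Oxtr. The 3 alpha1 genes together held 2.25%, 5.56% and 4.76% in WT and 4.22%, 4.08% and 5.27% in ++Oxtr. The 3 alpha2 genes held 0.223%, 0.923% and 0.944% in WT and 0.479%, 0.637% and 0.509% in ++Oxtr. For Adrb3 and both alpha classes the ++Oxtr libraries lay within the range of WT, for alpha2 through WT replicate 10 alone. Of the 8 single genes only Adra1b was without overlap in its share. It held 0.354%, 0.658% and 0.71% over the WT libraries and 0.351%, 0.215% and 0.316% over those of ++Oxtr. The gap between WT replicate 10 and ++Oxtr replicate 7 was narrow. In FPKM Adra1b itself was at 0.82 and 0.832 in those libraries, so its groups overlapped there. WT replicate 10 had the highest Adrb3 share and the lowest shares of both alpha classes.

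**Figure D3:**
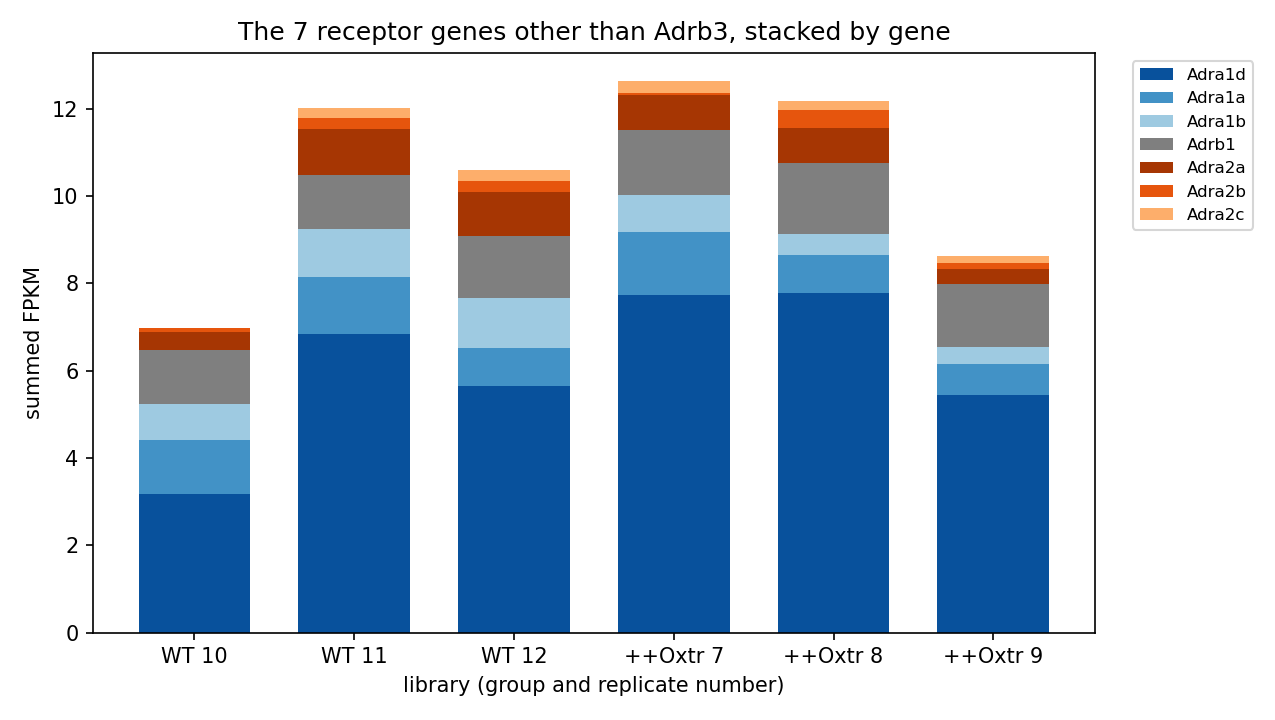
Stacked FPKM of the 7 receptor genes other than Adrb3 in each library, with alpha1 genes in blue, Adrb1 in grey and alpha2 genes in orange. The sum runs from 6.98 FPKM in WT replicate 10 to 12.6 in ++Oxtr replicate 7, and Adra1d is the largest part in all 6 libraries.

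The balance of Adrb3 to Adra2a, stimulating and restraining receptor, was set by single libraries. In FPKM the WT libraries gave ratios of 526, 144 and 149 and those of ++Oxtr 282, 266 and 351, so WT replicate 10 lay above and the other WT libraries below all ++Oxtr libraries. For Adrb3 to Adrb1 the WT ratios were 182, 125 and 107 and the ++Oxtr ratios 150, 131 and 79.6, with overlap. Within the alpha1 class Adra1d stood to Adra1b at 3.87, 6.25 and 4.94 over the WT libraries and at 9.3, 16.2 and 13.9 over those of ++Oxtr, without overlap. Adra1a to Adra1b was also without overlap, at 1.51, 1.2 and 0.761 in WT and 1.74, 1.8 and 1.8 in ++Oxtr. Adra1d to Adra1a overlapped, at 2.56, 5.21 and 6.48 against 5.36, 8.99 and 7.71. These ratios were chosen with the counts known and carry no test.

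The genes did not move together over the libraries. In log2 CPM against its own mean, Adrb3 was highest in ++Oxtr replicate 7 (0.39) and WT replicate 10 (0.36). In WT replicate 10 the value was -0.84 for Adra1d, -0.58 for Adra2a, -0.60 for Adra2b and -0.99 for Adra2c. In ++Oxtr replicate 9, Adrb3, Adra1a, Adra1b and Adra2a were all at their lowest, at -0.57, -0.50, -0.71 and -0.85. Across the 6 libraries Pearson's r of log2 CPM was 0.90 for Adra1d with Adra2c and from -0.66 to 0.68 for the other 27 pairs, given as a description over libraries that share depth and tissue makeup.

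**Figure D4:**
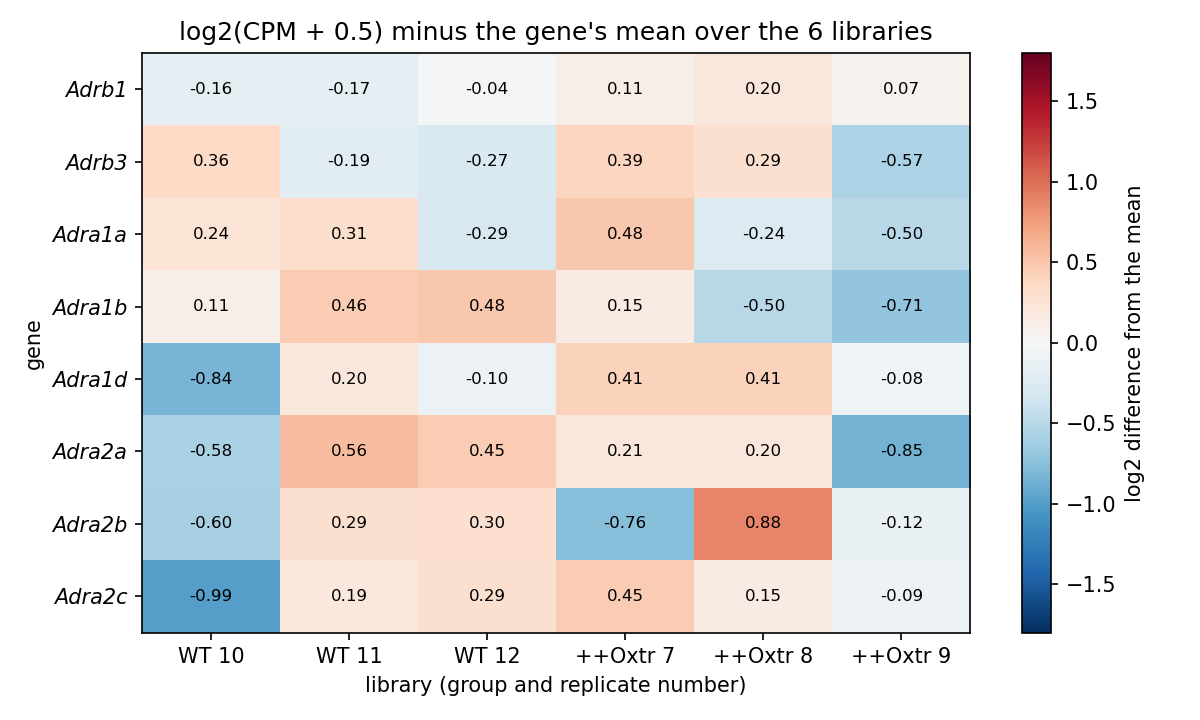
Level of each receptor gene in each library as log2(CPM + 0.5) minus its mean over the 6 libraries (red above, blue below). WT replicate 10 is low for Adra1d and the 3 alpha2 genes but high for Adrb3, and ++Oxtr replicate 9 is lowest for Adrb3, Adra1a, Adra1b and Adra2a.

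The genes whose pattern over the 6 libraries was most like that of a receptor were picked by Pearson's r of log2 CPM among genes with a mean of at least 10 CPM. For Adrb3 they were Tbc1d2 (r = 0.990), Prkaa1, a catalytic subunit of AMP-activated protein kinase (0.988), and Glb1l (0.987). For Adrb1 they were Sh2b1 (0.995), Traf6 (0.992) and Tmem94 (0.982). Zfp326 (0.996) came first for Adra1b, Cc2d1a (0.995) for Adra1d, Gle1 (0.989) for Adra1a, Pfkp (0.994) for Adra2a, Hpf1 (0.995) for Adra2b and Inpp1 (0.968) for Adra2c. Over 6 libraries such values are common. For Adrb3 113 of 9514 genes had an r above 0.9, and for the other receptors 52 to 157 genes did.

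Around the receptors, 90 genes of 8 lists of signal transduction, noradrenaline handling, lipolysis and other receptors were tested. By edgeR 0 of 90 passed an adjusted p of 0.05, as over all genes, and 12 had an unadjusted p under 0.05, against 8.91% of all genes. DESeq2 called 3 of them, Slc6a2, Ppargc1a and Sctr, against 1.4% of all genes. The groups did not overlap for 14 of the 90, against 15.1% of all genes. The medians of the lists are given beside a median of 0.00 over all genes.

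Slc6a2, the transporter that takes noradrenaline back up, was the gene of noradrenaline supply and removal with the smallest p. WT libraries held 33, 43 and 37 of its reads and ++Oxtr libraries 13, 14 and 8, without overlap. Its difference was -1.76 on the log2 scale (SE 0.39). The adjusted p was 0.347 in edgeR and 0.0313 in DESeq2. DESeq2's adjusted p was 0.0541, 0.186, 0.112 and 0.127 without WT replicates 10 and 12 and ++Oxtr replicates 7 and 9, and it was NA without WT replicate 11 or ++Oxtr replicate 8. Maob, a monoamine oxidase, had a log2 fold change of -0.63 (SE 0.21, edgeR adjusted p 0.462), and Slc22a3, a carrier for extraneuronal uptake, one of -0.35 (SE 0.15, edgeR adjusted p 0.560). Of the 8 tested genes 0 passed edgeR, 6 were on the lower side, and the median was -0.34. Th and Pnmt, enzymes of catecholamine synthesis, had 0 reads in every library, which allows up to 0.159 to 0.208 CPM each for a library (3 counts), and Dbh had at most 3 reads. Macrophage markers were lower in ++Oxtr too. The summed level of 7 of them was 958, 852 and 1096 CPM in WT and 733, 651 and 744 CPM in ++Oxtr. All 7 were on the lower side, 0 passed edgeR and DESeq2 called 2 (1.4% of all genes). Within the groups, Slc6a2 was highest in WT replicate 11 and ++Oxtr replicate 8, where the macrophage sum was lowest. With 8 to 43 reads of Slc6a2 per library, its order within a group is uncertain. Stmn2, a neuronal marker, was at 6.43, 5.97 and 8.59 CPM over the WT libraries and 5.1, 4.55 and 4.39 CPM over those of ++Oxtr, without overlap (log2 fold change -0.58, unadjusted edgeR p 0.0294). The summed level of the 10 sympathetic neuron and Schwann cell markers that include it was 11.7, 17.9 and 18.7 CPM in the former and 12.5, 13.3 and 16.4 CPM in the latter, with Th at 0. The part of macrophages and of nerve in the Slc6a2 values was not tested.

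On the Gs side, 18 genes from the G protein to protein kinase A had a median of -0.02 and 0 passed edgeR. Prkaca, the main catalytic subunit of protein kinase A, was at 140, 159 and 141 CPM in WT and 173, 179 and 177 CPM in ++Oxtr, without overlap, with a log2 fold change of 0.26 (SE 0.08, edgeR adjusted p 0.451). Adcy3, the cyclase that accompanies fat cell activation, had one of 0.55 (SE 0.22, edgeR adjusted p 0.517). Adcy8 was at 0.177, 0.277 and 4 CPM over the WT libraries and 0.106, 20.4 and 3.98 CPM over those of ++Oxtr. Its 3 higher libraries were also the 3 with the most multiciliated epithelium RNA. With that marker level as a covariate, its log2 fold change went from 2.45 (SE 1.65) to -0.75 (SE 0.60), and neither value passed edgeR. The covariate was a score from these same libraries, highest in ++Oxtr replicate 8 (2.572). The part of that epithelium in the Adcy8 values was not tested. Gnas, the gene of the Gs subunit itself, was counted at only 11.8 to 16.9 CPM, with a log2 fold change of -0.01 (SE 0.18). Other transcripts overlap its locus, and how the counting treated such reads is not known, so that level is uncertain.

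All 5 genes of the Gi branch were on the lower side in ++Oxtr, with a median of -0.19, and 0 passed edgeR. Over all genes 50.8% were on the higher side. Gnai3 was at 145, 125 and 141 CPM in WT and 120, 121 and 113 CPM in ++Oxtr. Gnai2 was at 375, 353 and 357 against 330, 315 and 339 CPM. Both were without overlap, where 7.61% of all genes were lower without overlap. Their log2 fold changes were -0.22 (SE 0.09) and -0.14 (SE 0.09), with edgeR adjusted p of 0.515 and 0.663. Gnao1 and Gnai1 were at -0.50 (SE 0.23) and -0.19 (SE 0.22), and Gnaz was at -0.06 (SE 0.57). The 14 genes of the Gq branch had a median of 0.05, with Gnaq at -0.19 (SE 0.11), Plcb3 at -0.15 (SE 0.07), Plcb1 at 0.35 (SE 0.20) and Itpr1 at 0.17 (SE 0.10), and 0 passed edgeR. Gnaq and Plcb3 were also lower in ++Oxtr without overlap.

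The receptor kinases, arrestins and phosphodiesterases that end the signal showed no common direction, with 8 of 16 on each side and a median of 0.00. Grk2 and Grk5, kinases that mark receptors for arrestin, were at -0.12 (SE 0.09) and -0.27 (SE 0.12) on the log2 scale. Pde4b and Pde4d, which break down cAMP, were at 0.50 (SE 0.20) and 1.06 (SE 0.48), and 0 of 16 passed edgeR. The Pde4d value was 0.32 without ++Oxtr replicate 9. Of 7 lipolysis effectors 0 passed and the median was -0.01. Lipe, hormone-sensitive lipase, was at -0.04 (SE 0.12), Pnpla2, adipose triglyceride lipase, at 0.25 (SE 0.16), and its activator gene Abhd5 at 0.10 (SE 0.13). G0s2, an inhibitor of that lipase, was at 196, 325 and 253 CPM in WT and 189, 161 and 113 CPM in ++Oxtr, with a log2 fold change of -0.74 (SE 0.24, edgeR adjusted p 0.462).

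Of 8 tested genes that beta agonists are known to raise in fat, 7 lay on the higher side (median 0.52), and 0 passed edgeR. Ucp1, Fgf21, Elovl3 and Il6, also on this list, had too few reads to be tested. Ppargc1a, a coactivator of mitochondrial genes, was at 5.31, 6.24 and 6.1 CPM in WT and 11.1, 12.3 and 22.5 CPM in ++Oxtr, without overlap. Its difference was 1.38 on the log2 scale (SE 0.29). The adjusted p was 0.319 in edgeR and 0.00318 in DESeq2, whose call was lost without WT replicate 10 (adjusted p 0.0527). Dio2, the deiodinase that makes active thyroid hormone, had 1, 7 and 14 reads over the WT libraries and 30, 18 and 23 over those of ++Oxtr, with a log2 fold change of 1.57 (SE 0.73, edgeR adjusted p 0.584), and of 2.42 without WT replicate 12. Nr4a1, an immediate early gene, was at 77.3 CPM in ++Oxtr replicate 9 and 9.29 to 22.1 CPM in the other libraries, and Nr4a2 had a log2 fold change of 0.36 (SE 0.32). Without ++Oxtr replicate 9 the log2 fold change of Nr4a1 went from 1.29 to 0.09, and that of Nr4a2 to 0.09.

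**Figure D5:**
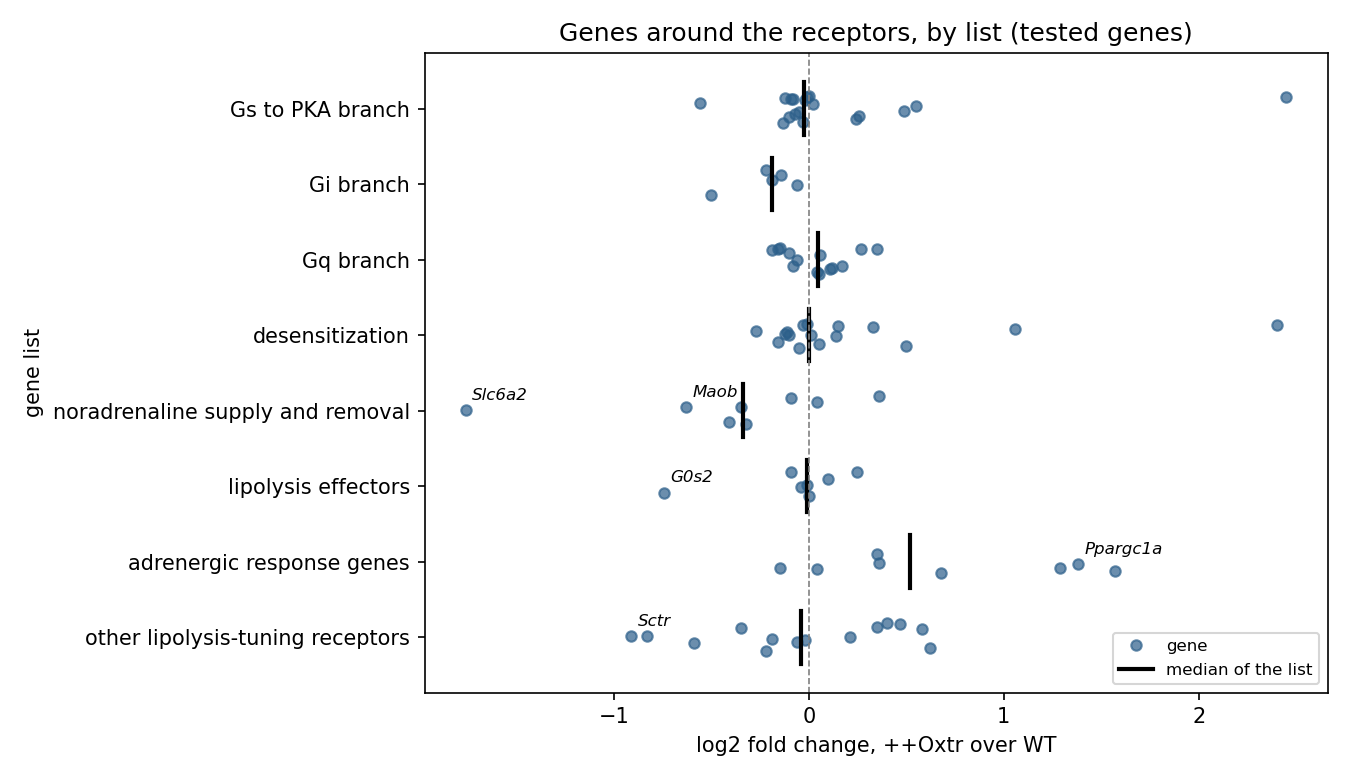
Log2 fold change, ++Oxtr over WT, of the tested genes in 8 lists around the receptors, with 1 point per gene and a bar at the median of each list. No gene passed edgeR at an adjusted p of 0.05, and list medians run from -0.34 (noradrenaline supply and removal) to 0.52 (adrenergic response genes).

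Other receptors that tune lipolysis had a median of -0.04 over 14 tested genes, of which 0 passed edgeR. Sctr, the secretin receptor, was at 25.2, 23.9 and 22.5 CPM in WT and 16.1, 9.22 and 12.6 CPM in ++Oxtr, without overlap. Its difference was -0.91 on the log2 scale (SE 0.20). The adjusted p was 0.344 in edgeR and 0.00956 in DESeq2, whose call was lost without WT replicate 10, 11 or 12 (0.112, 0.0863 and 0.0833). Hcar2, a Gi-coupled receptor for ketone bodies, had a log2 fold change of 0.47 (SE 0.19, edgeR adjusted p 0.517), Pth1r, the parathyroid hormone receptor, 0.58 (SE 0.24, edgeR adjusted p 0.557), and Adora1, the A1 adenosine receptor, 0.21 (SE 0.11, edgeR adjusted p 0.617).

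The cell types that could carry alpha receptors were also measured. The summed level of 11 vascular smooth muscle and pericyte markers was 1244 to 1519 CPM in WT and 1169 to 1573 CPM in ++Oxtr, and that of 7 endothelial markers 1403 to 1529 and 1335 to 1519 CPM. For 6 stromal progenitor markers it was 2143 to 2642 and 1994 to 2485 CPM, and for 6 mesothelial markers 213 to 373 and 243 to 312 CPM. For 8 epithelial markers it was 9.23 to 36.7 CPM in WT and 26.5 to 115 CPM in ++Oxtr, and for 7 brown or beige adipocyte markers 149 to 261 and 158 to 395 CPM. The groups overlapped in each of these sums, and no list had a member past edgeR. Most of the brown or beige sum was Pdk4, at 205, 125 and 241 CPM in WT and 174, 124 and 340 CPM in ++Oxtr. Its overlap therefore says little about the other markers of that list. All 5 tested ones were on the higher side (50.8% of all genes). Pdk4 and Cidea overlapped, and Dio2, Ppargc1a and Cox8b did not (7.45% of all genes were higher without overlap). Dio2 and Ppargc1a were already counted above among the genes that beta agonists raise. Ucp1 and Elovl3, also on this list, had too few reads to be tested. Ucp1 had 5, 1 and 4 reads in WT and 56, 7 and 4 in ++Oxtr, so it stood out in ++Oxtr replicate 7 alone. Elovl3 had 0, 3 and 1 reads in WT and 2, 7 and 6 in ++Oxtr. DESeq2 called 2 of the 5 tested brown or beige markers, Ppargc1a and Cox8b (log2 fold change 1.29, DESeq2 adjusted p 0.042), against 1.4% of all genes.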

How the data were processed

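Total RNA of mouse white adipose tissue (3 WT and 3 ++Oxtr libraries) was purified by Trizol, and the NEBNext Ultra II kit served for library construction, per the labels' protocols. The genome build was mm10, per the submitters' processing notes. The aligner, counting program, annotation release and strand setting were not given in the sources used here. The deposited table gives raw read counts and FPKM for each gene and library, per the file headers. Its gene positions differ from GENCODE M21 on GRCm38 for all 8 receptor genes, so positions printed here are those of GENCODE.

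The counts were tested with edgeR 4.0.16 in R 4.3.3 (quasi-likelihood F-test, TMM factors, robust dispersion, genes kept by filterByExpr, no covariate, Benjamini-Hochberg over 13566 genes). Intervals are at 95%. Exact 2-sided permutation tests used log2(CPM + 0.5) over the 20 assignments of the libraries. DESeq2 1.42.0 and limma 3.58.1 served as alternatives. FPKM were used to compare levels between genes, for shares and ratios, and in the limma alternative. The edgeR step was tested on simulated data made from these libraries (13566 genes, 200 changed): it found 64% of the 2-fold changes, 94% of the 4-fold changes, and called 14 unchanged genes, where DESeq2 found 82% and 99% and called 49. The changed genes were drawn only from genes above a minimum mean count, which Adra1b, Adra2b and Adra2c did not reach. The shares found do not hold for genes with so few reads. Depth ran from 14314517 to 19186696 counts.

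The receptor genes, lists and tests were chosen with earlier results of these data known. Named genes were the 8 receptors, and of each list its first gene and the 3 with the smallest p, and the 3 genes most like each receptor. Not every receptor gene of the family is reported here.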

Additional observations from a re-analysis of the deposited data

How the results depend on the processing

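No paired analysis was possible because WT and ++Oxtr replicates carry different numbers. The count of 0 genes past edgeR's adjusted p of 0.05 held with both other normalizations, both other filters, the multiciliated covariate, an adjusted p of 0.1, each library left out, limma-voom and limma on FPKM, and was 190 with DESeq2. None of the 8 receptors passed under any alternative, with adjusted p-values from 0.394 upward. Leaving out 1 library moved the log2 fold change between 0.23 and 0.33 for Adrb1, -0.08 and 0.34 for Adrb3, -0.50 and 0.06 for Adra1a, -1.18 and -0.58 for Adra1b, 0.22 and 0.73 for Adra1d, -0.64 and -0.02 for Adra2a, -0.88 and 0.64 for Adra2b, and -0.08 and 0.92 for Adra2c. The sign turned for Adrb3 without WT replicate 12 (-0.01) or ++Oxtr replicates 7 (-0.08) or 8 (-0.01), and for Adra1a without ++Oxtr replicate 9 (0.06). It turned for Adra2b without WT replicate 10 (-0.22) or ++Oxtr replicate 8 (-0.88), and for Adra2c without WT replicate 10 (-0.08). It also turned with limma-voom for Adra1a (0.10) and Adra2b (-0.56), with the covariate for Adra1a (0.17) and Adra2b (-1.17), and on log2 FPKM plus 0.1 for Adra2b (-0.03). The cause was not tested. Adra2b and Adra2c did not pass the filter of 1 CPM, so no value was had there. By the longest coding transcript, Adra1d made up 3.09% and the alpha2 genes 0.451% of the summed FPKM in ++Oxtr.

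For the other named genes the same alternatives were added after seeing the data. The sign turned for Gnas with limma-voom (0.03), upper quartile factors (0.02), the covariate (0.15), and without WT replicate 11 (0.13) or ++Oxtr replicate 8 (0.11), within -0.10 to 0.13 over the left-out libraries. It turned for Lipe with limma-voom (0.02), the covariate (0.03) and without WT replicate 11 (0.04), within -0.13 to 0.04, and with the covariate for Adcy8 (-0.75), Gnai1 (0.02) and Abhd5 (-0.06). DESeq2 alone called Slc6a2 (-1.77), Ppargc1a (1.38) and Sctr (-0.91). Adra2b and Adra2c had 1 to 26 reads per library, and the spread within a group was 3.45 and 12.3 times that of counting for Adra2b (WT and ++Oxtr), and 5.71 and 1.21 times for Adra2c.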

Other observations

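In ++Oxtr replicate 9, the library with the lowest Adrb3, several genes of the lists around the receptors lay apart from the other libraries. These genes were chosen after their values were seen and carry no test. Adcy5, an adenylyl cyclase, was at 81.1 CPM there and at 196 to 323 CPM in the others, and Tshr, the thyrotropin receptor, at 66.2 against 155 to 223 CPM. Rgs2, which shortens Gq signalling, was at 448 CPM against 16.8 to 58.3, and Pde4d at 30.5 against 7.01 to 11.2.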
